A study of Mus musculus with 12 samples.

Results

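Brown adipose tissue (BAT) and subcutaneous white adipose tissue (scWAT) of wild-type (WT) mice were compared on 6 of the 12 one-colour Agilent mouse arrays of the study, 3 of WT BAT and 3 of WT scWAT. The arrays were assigned to groups by their source label alone, but the comparison itself was chosen with earlier results of these data known. All mice were C57Bl6/J males aged 12 weeks, fed a high-fat diet (HFD) with 60% of its calories from fat. The diet is given both as 4 weeks and as lasting since weaning, so its length is not settled. The other 6 arrays hold scWAT and BAT of Lr11 -/- mice, which lack the sorting receptor LR11 (gene Sorl1) and were set against WT littermates. The sources do not say whether an array holds the RNA of 1 animal or of a pool. The p-values here therefore measure a spread between samples, pooled over WT and Lr11 -/- groups, that may be technical. The labels name no anatomical site beyond these depot names.

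Brown adipocytes burn fuel to make heat. Their mitochondria carry uncoupling protein 1 (Ucp1), which lets protons pass the inner membrane without making ATP, and noradrenaline from sympathetic nerves switches this on through beta-adrenergic receptors and cyclic AMP. White adipocytes store triglyceride in a single large droplet and secrete hormones such as leptin, and the subcutaneous white depot can gain Ucp1-bearing beige cells. Adipose depots also keep a record of their place in the body in their Hox genes, a family of transcription factors that lay out the axis of the embryo.

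Each value below is the log2 intensity of a probe minus the 75th percentile of its array, so that a value of 0 equals this percentile and a step of 1 is a 2-fold change in brightness. Levels of different probes are not comparable, and every comparison is of 1 probe between arrays. Over the 12 arrays 32377 to 37002 spots were well above background and none was saturated. A probe was tested where it was well above background on all 3 arrays of WT BAT or of WT scWAT, which held for 31574 of 55681 probes and, through RefSeq accessions, for 14520 named genes. A gene was read from its brightest tested probe. A gene or probe was called where limma gave it an adjusted p under 0.05 (Benjamini-Hochberg, all probes tested). The fit used the 12 arrays, with 1 mean for each of the 4 groups and 1 spread per probe shared by all 4. Standard errors (SE) and p-values thus assume equal spread in every group, whereas the WT scWAT arrays were less alike than the WT BAT arrays (below). An exact permutation test of 3 arrays against 3 cannot give a p below 0.1. Sorl1, the gene removed in the Lr11 -/- mice, read 0.91, 0.96 and 1.15 in WT scWAT replicates 1, 2 and 3 and 0.71, 1.21 and 0.11 in WT BAT. In Lr11 -/- it read -3.57, -3.56 and -2.87 in scWAT and -3.93, -2.45 and -2.48 in BAT, below every WT array. The 2 WT depots overlapped for Sorl1 and did not pass the test (difference -0.33, adjusted p = 0.58).

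The depots were not equally tight. Over all tested probes the 3 BAT arrays correlated with one another at 0.98, the 3 scWAT arrays at 0.89 to 0.91, and arrays of unlike depots at 0.81 to 0.92. WT scWAT replicate 2 stood apart, at -225.9 on a first principal component that held 50.2% of the variance, where the other WT scWAT arrays lay at -92.4 and -120.3 and the BAT arrays at 38.5 to 82.3. It also had the lowest summed level of the 12 general adipocyte genes, 9.10 on the log2 scale against 10.69 and 11.53 in the other scWAT arrays and 11.62 to 11.91 in BAT, and the highest summed level of the 14 macrophage genes, 9.40 against 5.92 and 6.83 in scWAT and 4.98 to 5.81 in BAT. Skeletal muscle genes crossed the depots. Summed over 16 of them, such as Acta1 (skeletal actin) and Ckm (muscle creatine kinase), WT scWAT read 2.80, 2.07 and 12.65 and WT BAT 10.93, 1.08 and 10.63. WT scWAT 3 and WT BAT 1 and 3 were therefore high, the other 3 WT arrays low, and none of the 8 muscle genes tested was called. In bulk samples of this kind fewer cells of a type and less RNA per cell cannot be told apart. Results are given below without WT scWAT 2, and without the 5 arrays of the series that were high in muscle genes. The second of these was chosen after the values were seen. It leaves WT BAT with replicate 2 alone, assumed to vary like the other groups. It leaves WT scWAT with replicates 1 and 2, so that scWAT 2 weighs more.

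**Figure D1:**
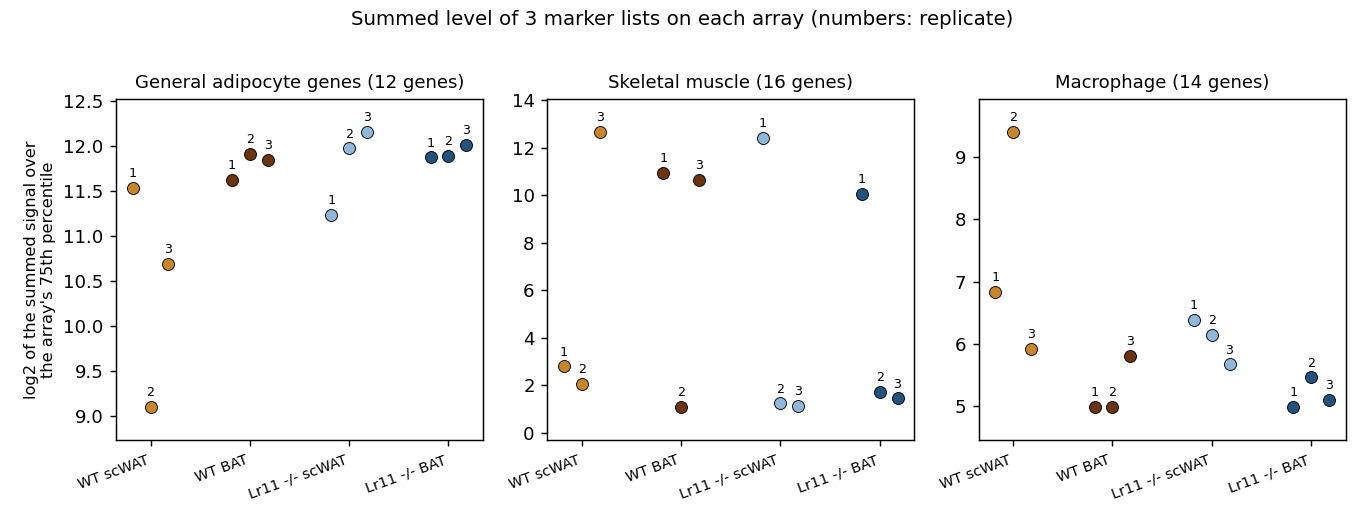
Summed level (log2 of the summed intensities, relative to the 75th percentile of each array) of general adipocyte, skeletal muscle and macrophage genes on the 12 arrays, 1 point per array and grouped by depot and genotype. Among the WT arrays, scWAT 2 is lowest for adipocyte genes (9.10) and highest for macrophage genes (9.40), and scWAT 3, BAT 1 and BAT 3 are the 3 that lie above 10 for muscle genes.

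Of the 31574 probes tested, 8005 passed, 5048 higher in BAT (16% of those tested) and 2957 higher in scWAT (9.37%). In genes, 3910 of 14520 passed, with 2323 higher in BAT (16%) and 1587 higher in scWAT (10.9%). At least 2-fold differences made up 1879 and 1346 of them. Leaving aside the test, the 3 BAT arrays lay wholly above the 3 scWAT arrays in 3523 genes (24.3% of all tested) and wholly below in 2531 (17.4%). The median difference of all tested genes was 0.06. The medians and counts of gene groups below are to be read against this value and the shares above. The share of called probes that were higher in BAT, 63.1%, rests on the scaling, since without scaling it was 34.2% and the median of all probes moved from 0.07 to -0.25. Without WT scWAT 2, 2693 genes were called and 2448 of the 3910 kept their call. Without the 5 muscle-rich arrays 1257 were called, 1071 of the 3910 kept their call and all 3910 kept their sign. The arrays form 2 series, with replicate 1 of each group in the first and replicates 2 and 3 in the second, and 3903 of the 3910 called genes had the same sign in both. In the first series the depots lie on different slides and cannot be told apart from them, in the second all arrays share 1 slide, and with slide as a block 4084 probes passed.

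**Figure D2:**
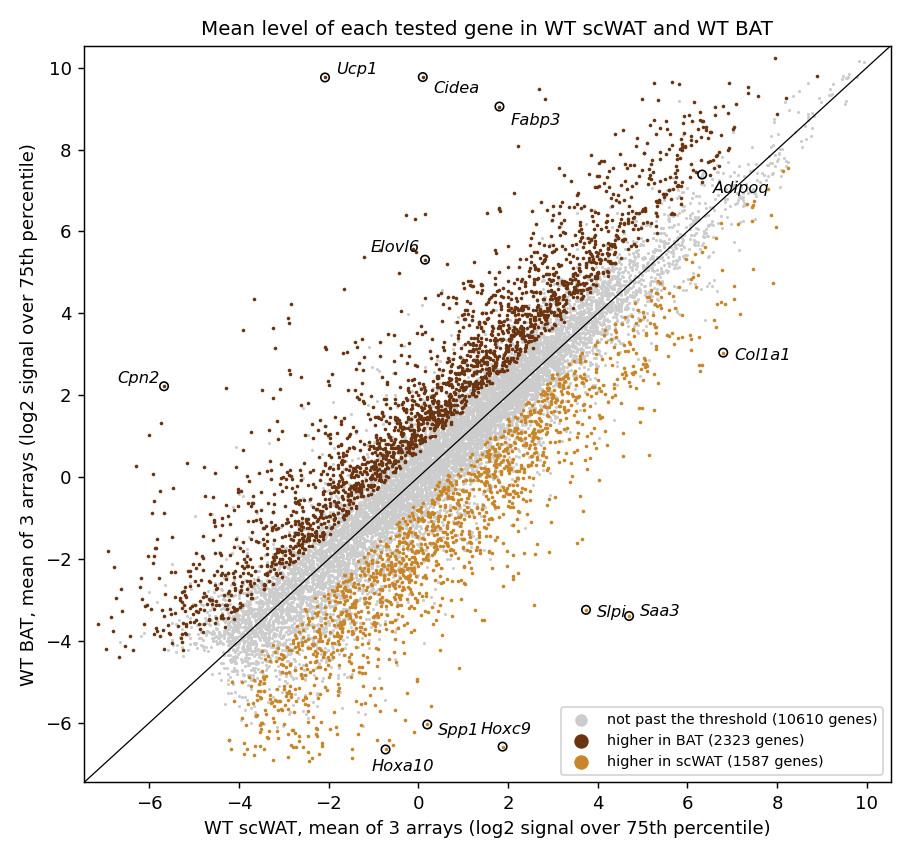
Mean level in WT scWAT (x axis) and WT BAT (y axis) of the 14520 tested genes, in log2 intensity relative to the 75th percentile of the array, n = 3 arrays each, with called genes coloured by direction and the diagonal marking equal levels. The 2323 genes called higher in BAT lie above the diagonal with Ucp1 farthest from it, and the 1587 called higher in scWAT lie below it with Hoxc9 and Saa3 farthest.

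The genes of thermogenesis separated the depots widely, with Ucp1 the widest of all genes tested. Ucp1 read -4.63, -4.52 and 2.92 in scWAT and 9.45, 10.04 and 9.80 in BAT. BAT was tightly grouped (9.76 ± 0.30, SD, n = 3) and scWAT was not (-2.08 ± 4.33, SD, n = 3), since scWAT 3 lay far above the other scWAT arrays, and all 3 lay below BAT. The difference was 11.84 ± 1.91 (SE, adjusted p = 0.0041). It was 14.07 in the first array series and 10.72 in the second. Only 2 of the 3 scWAT arrays measured Ucp1 above background. Its fold is therefore also given as a bound, for which an array takes its own lowest measurable signal where that is higher than the probe, and by which BAT was at least 3580-fold higher. Such a bound takes no account of how far the arrays of a depot differ.

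Cidea, a lipid droplet protein of brown adipocytes, read 1.27, -5.31 and 4.34 in scWAT and 9.52, 9.86 and 9.93 in BAT, a difference of 9.67 ± 1.91 (adjusted p = 0.0074) and at least 666-fold, with 2 of 3 scWAT arrays measured. It was 6.97 without scWAT 2. Without the muscle-rich arrays it was 11.88, where its adjusted p was 0.056. Ppargc1a, the coactivator that drives mitochondrial biogenesis, read -1.66, -2.90 and 0.32 in scWAT and 3.52, 3.55 and 2.84 in BAT (difference 4.72 ± 0.91, adjusted p = 0.0068). For Ppara, the nuclear receptor of fatty acid oxidation, scWAT held 0.31, -2.51 and 1.98 and BAT 6.19, 6.63 and 6.10 (6.38 ± 1.22, adjusted p = 0.0065). In all 4 of these genes scWAT 3 was the highest scWAT array, and for 3 of them scWAT 2 was the lowest.

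Dio2, the deiodinase that makes active thyroid hormone inside the cell, behaved otherwise, since scWAT was even (-1.20, -0.99 and -1.59) and BAT was not (4.44, 4.00 and 1.67). Its difference was 4.63 (adjusted p = 0.028, and 0.059 without scWAT 2). Adrb3, the beta-3 adrenergic receptor, read 2.92, -1.91 and 3.60 against 6.33, 7.12 and 5.89 (4.91, adjusted p = 0.012). Prdm16, a regulator that keeps brown adipocyte identity, differed by 2.19 (adjusted p = 0.027, and 0.08 without scWAT 2). Of the 9 thermogenic genes 7 were higher in BAT, none was higher in scWAT, and the median difference was 4.72. The other 2 were Elovl3, which lengthens fatty acids (4.18, adjusted p = 0.095), and Bmp8b, a secreted factor of brown fat (2.63, adjusted p = 0.069), whose probe was not well above background on any scWAT array. The groups did not overlap in any of the 9. Without scWAT 2 the median was 3.97 with 5 called, and without the muscle-rich arrays it was 5.83 with 4 called.

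**Figure D3:**
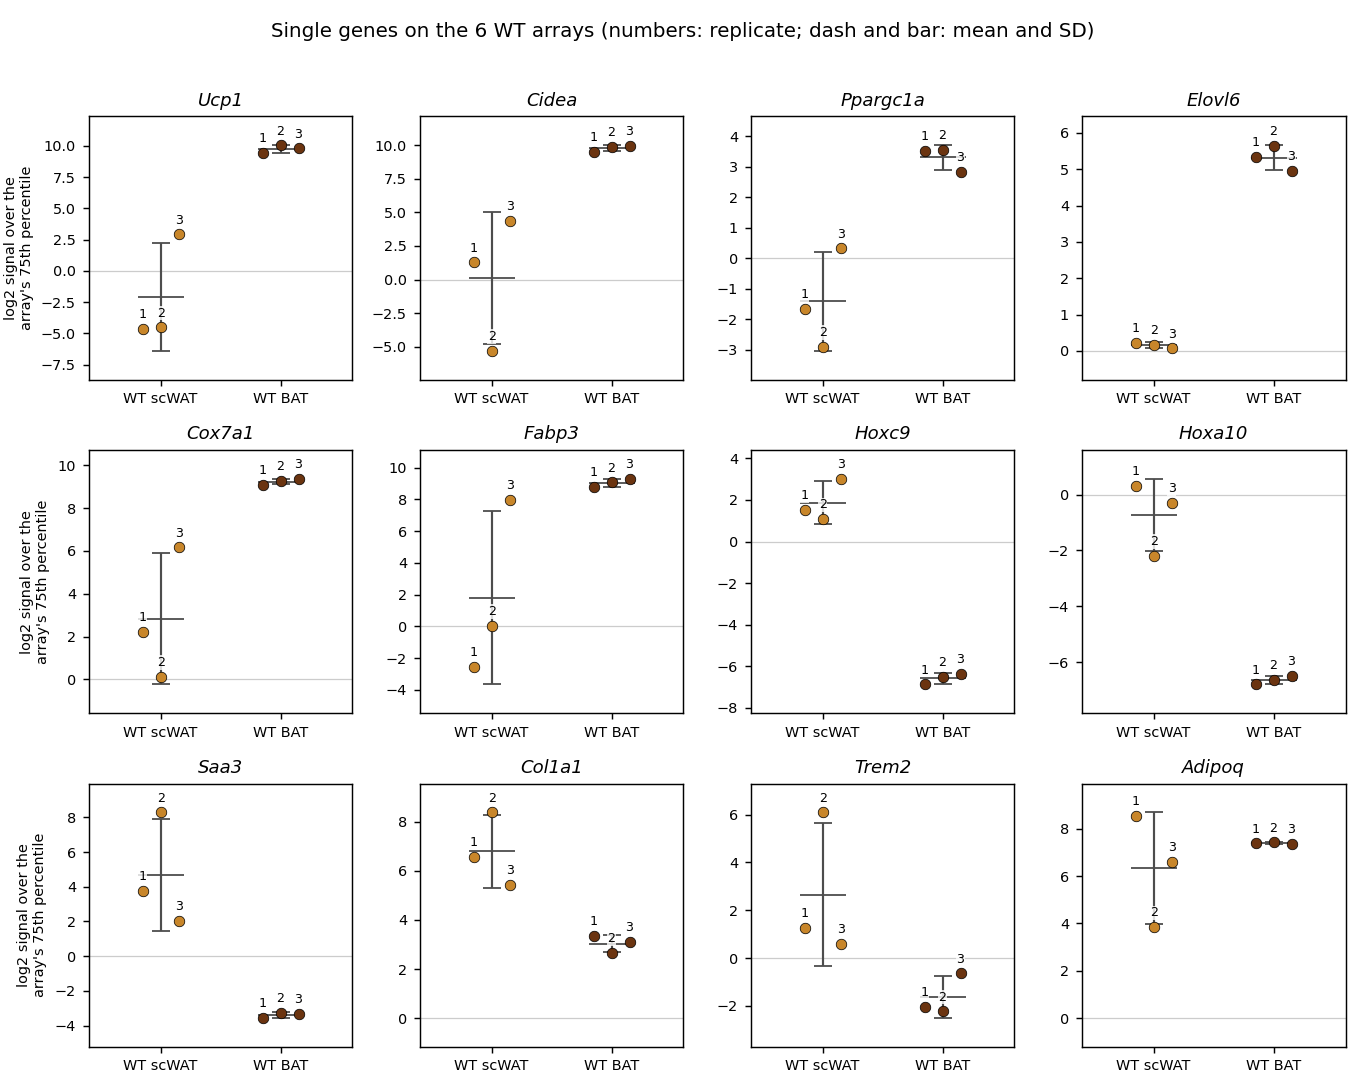
Level of 12 genes on each of the 6 WT arrays, in log2 intensity relative to the 75th percentile of the array, 1 panel per gene, with points numbered by replicate, a dash at the mean of 3 arrays and a bar for the SD. BAT lies above scWAT for Ucp1, Cidea, Ppargc1a, Elovl6, Cox7a1 and Fabp3 and below it for Hoxc9, Hoxa10, Saa3, Col1a1 and Trem2, and the depots overlap for Adipoq.

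The machinery of respiration was higher in BAT almost as a block. All 21 subunits of complex I, which takes electrons from NADH, were higher, by 1.37 (Ndufa2) to 3.41 (Ndufa10), with a median of 2.38. Ndufs1, a core subunit, read 4.44, 3.31 and 5.28 in scWAT and 7.50, 7.70 and 7.47 in BAT (3.22, adjusted p = 0.0039). All 13 subunits of complexes II and III were higher too (median 2.53). Uqcrc1, a core protein of complex III, read 3.86, 2.33 and 4.50 in scWAT and 7.06, 6.92 and 6.86 in BAT (3.38, adjusted p = 0.0048). In each of these 34 genes every BAT array lay above every scWAT array, as was so in 24.3% of all tested genes.

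Of 14 genes of cytochrome c oxidase and cytochrome c, 13 were higher in BAT (median 2.27). The widest were isoforms that heart and muscle also use. Cox8b read 3.89, -3.15 and 7.33 in scWAT and 9.27, 9.54 and 9.60 in BAT (6.78, adjusted p = 0.029), and Cox7a1 read 2.21, 0.12 and 6.16 against 9.09, 9.26 and 9.35 (6.40, adjusted p = 0.0061). For both, the scWAT array high in muscle genes was the highest of its depot. Cox6a2, the muscle isoform of another subunit, followed the muscle genes and not the depot, at -0.88, -1.03 and 8.32 in scWAT and 5.66, -4.35 and 6.04 in BAT (0.32, adjusted p = 0.96).

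ATP synthase was less uniform. Of 15 genes 11 were higher in BAT (median 1.60), led by Atp5d (2.45), while Atp5g1 (-1.41, adjusted p = 0.38), Atp5g3 (0.09, adjusted p = 0.86) and Atp5j (0.59, adjusted p = 0.22) did not pass. Atpif1, the inhibitor that stops the enzyme from running backwards, went the other way, at 5.06, 6.26 and 4.43 in scWAT and 3.62, 3.66 and 3.96 in BAT (-1.5, adjusted p = 0.018). All 13 citrate cycle enzymes were higher in BAT, by 2.04 (Mdh2) to 4.01 (Suclg1), with a median of 3.13, and Sucla2 (3.92) followed Suclg1.

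Mitochondrial fatty acid oxidation showed an exchange of isoforms at its entry step. Cpt1b, the muscle-type carnitine palmitoyltransferase that admits fatty acids to the mitochondrion, read -1.40, -2.90 and 3.93 in scWAT and 5.26, 5.65 and 5.81 in BAT (5.69, adjusted p = 0.016). Cpt1a, the liver-type form of the same enzyme, read 3.32, 3.24 and 1.73 in scWAT and 0.93, 1.03 and 1.45 in BAT (-1.62, adjusted p = 0.013). Neither gene's depots overlapped, and scWAT 3, the array high in muscle genes, was the nearest to BAT in both. Of the 18 genes of the pathway 16 were higher in BAT (median 3.45), with Acaa2 (4.37), Hadhb (4.24) and Hadha (4.01), enzymes of the last steps of the cycle, the widest after Cpt1b. Acsl1, which activates fatty acids, did not pass (2.45, adjusted p = 0.081).

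Of 14 proteins of the mitochondrial ribosome, which translates the genes of mitochondrial DNA, 11 were higher in BAT (median 1.79, led by Mrpl34 at 2.92), and Mrps7, Mrps18b and Mrps22 (0.96 to 1.37) did not pass. Peroxisomes shared less of this. There 5 of 17 genes were higher (median 1.32): Crat (3.23), Abcd3 (2.54), Pex11a (2), Pex3 (1.92) and Acot4 (1.68). Of 10 genes of the creatine and calcium cycles, which can burn ATP without Ucp1, 3 were higher in BAT (Ryr2 2.85, Alpl 2.23 and Ckmt1 1.77) and Gatm, which makes the precursor of creatine, was lower (-1.74), with a median of 0.45.

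These counts moved little without scWAT 2, where complex I kept 20 of 21 (median 1.87), complexes II and III 13 of 13 (2.21), cytochrome c oxidase 13 of 14 (2), the citrate cycle 13 of 13 (2.70) and fatty acid oxidation 16 of 18 (2.73), and ATP synthase fell from 11 to 8 (1.30). With the muscle-rich arrays left out the medians were larger, at 3.02, 2.96, 2.66, 3.85, 3.88 and 2.22 in the same order, on fewer arrays and with 15, 11, 9, 9, 6 and 9 genes called higher in BAT. In the first array series alone the median was 2.20 for complex I, 2.88 for the citrate cycle, 1.31 for ATP synthase, 2.37 for fatty acid oxidation and 0.05 for the peroxisome. Muscle genes were high in 2 of 3 BAT arrays and 1 of 3 scWAT arrays. Their part in these differences was measured only by leaving those arrays out, which also gave scWAT 2 more weight. The parts of these 2 changes in the larger medians were not told apart.

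**Figure D4:**
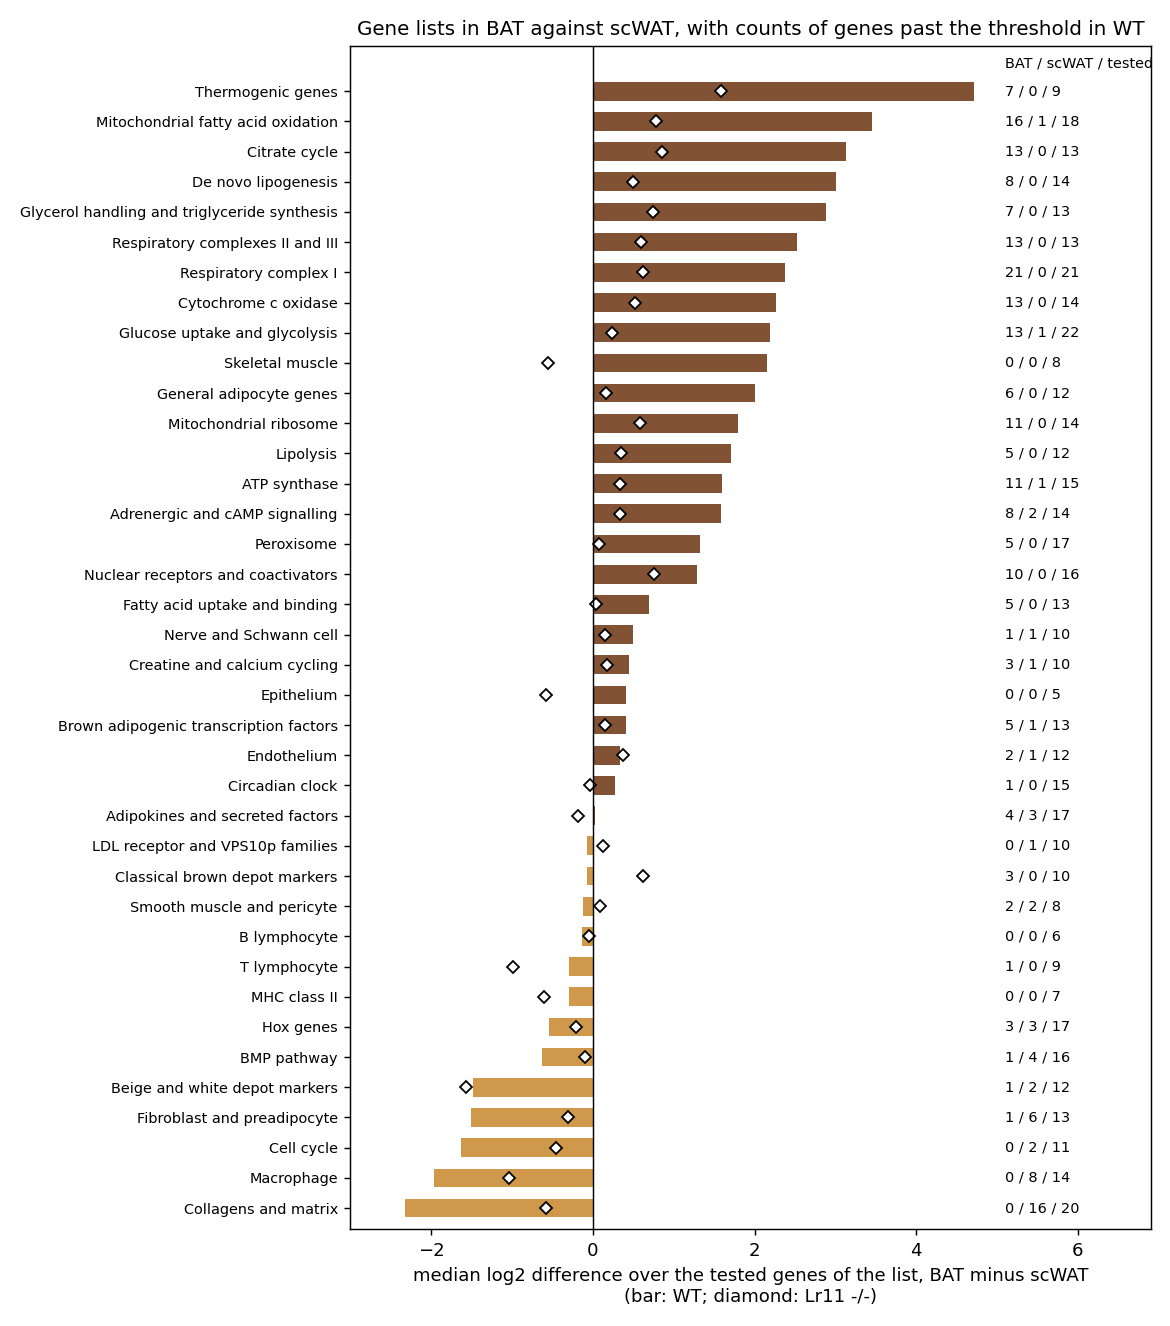
Median difference (WT BAT minus WT scWAT, log2) of each gene list as a bar, with the median of the same genes in Lr11 -/- as a diamond and the number of genes called higher in BAT and in scWAT beside it. The respiratory, citrate cycle and fatty acid oxidation lists lie between 1.60 and 3.45, thermogenic genes at 4.72, collagens and matrix at -2.32, and every diamond of these lists lies nearer to 0 than its bar.

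Promoters of the oxidation genes were read from RefSeq (GRCm38.p6), 250 bases before to 50 bases after each start, and searched on both strands for the cores of 5 motifs. A promoter was given for 11525 of the 14520 tested genes and for 77 of the 94 tested members of the 6 oxidation lists. GCGCATGCG, the core bound by NRF1, a factor of many nuclear genes for mitochondrial proteins, was in the promoters of 11 of those 77 genes (14.3%), of 3.57% of all tested genes with a promoter and of 1.95% of all 27025 genes with one. It stood at 4.61% among genes higher in BAT and 2.29% among genes higher in scWAT. TCAAGGTCA, the full core bound by oestrogen-related receptors, was in 2 of the 77 (2.6%) against 0.338% of tested genes. CCGGAAG, an ETS core, was in 24.7% against 17.6%, TGACGTCA, the cyclic AMP response element, in 6.49% against 3.23%, and TTGCGCAA, a C/EBP core, in none against 0.286%. Genes higher in BAT differed little from tested genes that were not called for the cyclic AMP element (3.34% and 3.48%) and the ETS core (19.8% and 18.3%), while genes higher in scWAT held fewer of both (1.31% and 9.07%). No test was run on these shares, and a match is a run of letters in the window, not a bound site.

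The following promoters are shown because their genes carry the respiratory and thermogenic differences described above and hold at least 1 of these cores. Each is written 5′ to 3′ along its gene in lower case, with the core named before it in capitals. Cox6a1 and Sdhd also hold an ETS core and Cycs a cyclic AMP response element, and these are left in lower case. In the first 2 the core and its reverse complement overlap by all but 1 base, which gives a run of 10 capitals and 2 matches.
Uqcrc1 (complex III; NRF1 core, first capital at base 31 counted from the start; chr9:108936398-108936697, plus strand): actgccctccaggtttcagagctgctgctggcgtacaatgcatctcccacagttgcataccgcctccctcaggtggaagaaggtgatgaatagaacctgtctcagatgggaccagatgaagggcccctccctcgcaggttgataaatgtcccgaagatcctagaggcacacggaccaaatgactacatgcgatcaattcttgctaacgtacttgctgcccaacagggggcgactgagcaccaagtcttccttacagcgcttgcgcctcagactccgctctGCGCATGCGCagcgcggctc
Cox6a1 (cytochrome c oxidase; NRF1 core, first capital 162 bases before the start; chr5:115348909-115349208, minus strand): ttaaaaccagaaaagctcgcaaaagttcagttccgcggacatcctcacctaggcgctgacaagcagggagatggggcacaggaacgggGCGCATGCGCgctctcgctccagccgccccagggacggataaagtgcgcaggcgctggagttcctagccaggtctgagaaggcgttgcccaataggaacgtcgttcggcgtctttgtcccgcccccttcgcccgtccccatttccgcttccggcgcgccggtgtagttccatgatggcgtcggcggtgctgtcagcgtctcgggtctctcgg
Cycs (cytochrome c; NRF1 core on the opposite strand, first capital 61 bases before the start; chr6:50566520-50566819, minus strand): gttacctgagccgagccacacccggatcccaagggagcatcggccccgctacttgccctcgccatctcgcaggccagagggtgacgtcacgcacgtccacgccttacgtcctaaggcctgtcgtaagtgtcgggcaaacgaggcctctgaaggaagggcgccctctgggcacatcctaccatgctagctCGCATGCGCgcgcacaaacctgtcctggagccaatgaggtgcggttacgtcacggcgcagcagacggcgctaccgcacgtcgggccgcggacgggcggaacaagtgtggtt
Sdhd (complex II; oestrogen-related receptor core on the opposite strand, first capital at base 37 counted from the start; chr9:50603800-50604099, minus strand): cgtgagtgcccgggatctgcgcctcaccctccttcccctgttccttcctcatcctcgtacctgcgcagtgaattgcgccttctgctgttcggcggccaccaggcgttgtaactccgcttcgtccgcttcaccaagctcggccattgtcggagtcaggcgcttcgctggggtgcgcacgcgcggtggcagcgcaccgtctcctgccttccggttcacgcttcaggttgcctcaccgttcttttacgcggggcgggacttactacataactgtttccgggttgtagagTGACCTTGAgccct
Dio2 (deiodinase; cyclic AMP response element, first capital 95 bases before the start; chr12:90738989-90739288, minus strand): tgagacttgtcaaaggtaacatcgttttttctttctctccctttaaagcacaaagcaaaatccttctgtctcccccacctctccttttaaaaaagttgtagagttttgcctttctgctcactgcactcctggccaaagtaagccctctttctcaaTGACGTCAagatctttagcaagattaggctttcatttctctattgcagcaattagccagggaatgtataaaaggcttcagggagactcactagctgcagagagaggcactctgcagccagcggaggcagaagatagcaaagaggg

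Cox6a1 read 8.62, 7.61 and 7.66 in scWAT and 9.97, 10.37 and 10.36 in BAT, a difference of 2.27 (adjusted p = 0.0065). Cycs differed by 2.76 (adjusted p = 0.011) and Sdhd by 2.53 (adjusted p = 0.0059), so that all 4 respiratory genes shown were higher in BAT without overlap. The NRF1 factor has its own probe (gene Nrf1), and that did not pass (-0.43, adjusted p = 0.11).

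Genes of making and storing fat were in part also higher in BAT, though the spread within scWAT was wider here. Elovl6, which extends palmitate to stearate, read 0.23, 0.16 and 0.07 in scWAT and 5.34, 5.65 and 4.96 in BAT (5.17 ± 0.94, adjusted p = 0.0056). The 3 scWAT arrays were nearly equal, the difference was 5.17 also without scWAT 2, and it was 5.46 without the muscle-rich arrays. Fasn, the fatty acid synthase, read 2.85, -3.44 and -0.74 in scWAT and 5.38, 5.32 and 4.25 in BAT (5.43, adjusted p = 0.017). Its scWAT arrays spread widely with scWAT 2 the lowest, and the difference was 3.93 without that array. Acaca, which makes the malonyl-CoA that Fasn uses, differed by 4.15 (adjusted p = 0.0036), and Thrsp (5.87) and Mlxipl (3.64, though another probe of it read -0.28), regulators of lipogenesis, were higher in BAT too. In all, 8 of 14 lipogenic genes were higher in BAT (median 3.01) and none in scWAT. Me1 (0.68, adjusted p = 0.56) and Scd2 (-0.71, adjusted p = 0.70) did not pass.

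Handling of glycerol followed. Gpd2, the mitochondrial glycerol-3-phosphate dehydrogenase of the shuttle that feeds electrons into respiration, read 0.09, -0.64 and 0.36 in scWAT and 5.66, 5.83 and 5.04 in BAT (5.57 ± 0.80, adjusted p = 0.0031). Each depot was tight and the gap between them wide. Gk, the glycerol kinase that lets an adipocyte reuse glycerol, differed by 4.38 (adjusted p = 0.023), and Pck1, which makes new glycerol backbone, by 4.00 (adjusted p = 0.0054). Of 13 genes of glycerol handling and triglyceride synthesis 7 were higher in BAT (median 2.88), and Dgat2 did not pass (3.36, adjusted p = 0.066). The lipolysis list, which holds lipases and lipid droplet proteins, had 5 of 12 (median 1.71). The widest were 2 droplet proteins, Cidea, counted above too, and Plin5 (4.79), which ties lipid droplets to mitochondria. The lipase Pnpla2 passed (2.06, adjusted p = 0.038) but lost its call without any 1 of the BAT arrays. The lipase Lipe (2.23, adjusted p = 0.065), Plin4 (-0.14, adjusted p = 0.88) and Cidec (0.97, adjusted p = 0.38) did not pass.

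Uptake of fatty acids was set apart by single genes. Slc27a2, a transporter and acyl-CoA synthetase, read -4.09, -5.75 and -1.15 in scWAT and 3.42, 4.16 and 5.45 in BAT (8 ± 1.11, adjusted p = 0.0029) and was at least 189-fold higher, with 2 of 3 scWAT arrays measured. Fabp3, the fatty acid binding protein of heart and muscle, read -2.56, 0.04 and 7.95 in scWAT and 8.78, 9.07 and 9.29 in BAT (7.24 ± 2.03, adjusted p = 0.026). Its value in scWAT 3 was close to BAT, its adjusted p was 0.083 without scWAT 2, and the difference was 10.33 without the muscle-rich arrays (adjusted p = 0.026). Lpl (0.44, adjusted p = 0.59) and Cd36 (0.08, adjusted p = 0.91), the lipase and the receptor by which adipocytes take in circulating fat, did not pass. Lmf1, which folds that lipase, was higher in BAT (1.92, adjusted p = 0.0057), as were Fabp4 (0.91) and Slc27a4 (0.70), making 5 of 13 (median 0.70).

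For glucose, the 2 main transporters had opposite signs and 1 of them passed. Slc2a1, the general transporter, read 0.99, 3.81 and 1.75 in scWAT and 0.46, 0.08 and -0.11 in BAT (-2.04, adjusted p = 0.028), and Slc2a4, the insulin-regulated one, read 4.87, -0.45 and 6.24 against 6.67, 6.81 and 5.82 (2.89, adjusted p = 0.12), with overlap. Of 22 genes of glucose uptake, glycolysis, pyruvate use and glycogen synthesis 13 were higher in BAT (median 2.19). Among them were Pfkl (4.01) and Ldhb (3.82). Others belong to pyruvate use, namely Mpc1 (2.41), Mpc2 (2.33), the pyruvate dehydrogenase subunit Pdha1 (3.29) and its kinase Pdk4 (3.56, with overlap). The count is thus not one of glycolysis alone. Gapdh (0.94, adjusted p = 0.076) and Aldoa (0.92, adjusted p = 0.14) did not pass.

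Counts in these lists fell without scWAT 2, the array with the lowest adipocyte sum, to 6 of 14 for lipogenesis (median 1.88), 5 of 13 for glycerol, 3 of 12 for lipolysis with 1 now higher in scWAT (Plin4), 3 of 13 for uptake and 7 of 22 for glucose. Without the muscle-rich arrays 2 of 14, 2 of 13, none of 12, 3 of 13 and 8 of 22 were called higher in BAT in the same order, with 1 uptake gene higher in scWAT. In the first array series alone, with 1 array a depot, the medians were smaller, at 1.89 for lipogenesis, 0.50 for glycerol, 0.50 for lipolysis, 0.32 for general adipocyte genes and -0.26 for uptake. General adipocyte genes showed the same. Of 12, 6 were higher in BAT and the median was 2.01, which became 3 and 1.09 without scWAT 2 and none and 2.23 without the muscle-rich arrays. Adipoq, the adiponectin gene of all adipocytes, read 8.55, 3.84 and 6.61 in scWAT and 7.39, 7.43 and 7.35 in BAT, so that BAT lay inside the range of scWAT (1.06, adjusted p = 0.38).

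Receptors for noradrenaline were exchanged between the depots. Adrb1, the beta-1 receptor, read -2.44, -4.07 and -3.93 in scWAT and 2.16, 2.56 and 1.67 in BAT (5.61 ± 0.73, adjusted p = 0.0024) and was at least 48.8-fold higher in BAT, with 2 of 3 scWAT arrays measured. Adra2a, the alpha-2 receptor that restrains cyclic AMP, went the other way, at -1.45, 3.17 and -0.88 in scWAT and -4.83, -5.33 and -6.65 in BAT (-5.88 ± 1.17, adjusted p = 0.0074). It was not well above background on any BAT array and was at least 30.0-fold higher in scWAT. This bound includes scWAT 2, its highest array by far, and the difference was -4.44 without that array. Adenylyl cyclases, which make cyclic AMP, split likewise, Adcy3 being higher in BAT (2.38, adjusted p = 0.0057) and Adcy5 higher in scWAT, where it read 3.50, 0.96 and 2.27 against -0.32, -1.21 and -1.02 (-3.09, adjusted p = 0.011). Adra1a, the alpha-1A receptor, was higher in BAT by 4.31 (at least 12.2-fold), as was Gnas, the stimulatory G protein, by 2.60. The list counted 8 of 14 higher in BAT and 2 in scWAT (median 1.58), 4 and 2 without scWAT 2, and 2 and none without the muscle-rich arrays.

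Among nuclear receptors and coactivators 10 of 16 were higher in BAT and none in scWAT (median 1.29), and without scWAT 2 these were 7 and 2. Beside Ppara and Ppargc1a these included Ppargc1b (4.02, adjusted p = 0.0069), another coactivator of mitochondrial genes, the oestrogen-related receptors Esrrg (3.70) and Esrra (2.05), Nr4a1 (2.92) and Pparg (2.49), the master regulator of all adipocytes. Nrip1, a corepressor of oxidative genes, did not pass (-1.10, adjusted p = 0.077) but did without scWAT 2 (-1.67, adjusted p = 0.0075). Brown adipogenic transcription factors moved less. Ebf2, which marks brown precursors, read 0.53, -0.38 and -0.07 in scWAT and 2.06, 2.76 and 2.12 in BAT (2.29 ± 0.28, adjusted p = 0.002), without overlap. Prdm16, Gabpa (1.11), Tfam (0.98) and Cebpb (0.89) were higher in BAT and Gata6 was higher in scWAT (-1.40), so that 5 of 13 and 1 of 13 were called with a median of 0.41. Irf4 (-0.36) and Ebf1 (0.65) did not pass.

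Most Hox genes did not pass, but 3 of them separated the depots widely. Hoxc9, a homeobox factor of the trunk, read 1.53, 1.08 and 3.02 in scWAT and -6.87, -6.49 and -6.38 in BAT (-8.46 ± 0.42, adjusted p = 2.7e-05). No BAT array was above background, every scWAT array was, and scWAT was at least 90.9-fold higher. Hoxa10 read 0.30, -2.19 and -0.30 in scWAT and -6.80, -6.65 and -6.49 in BAT (-5.92 ± 0.50, adjusted p = 0.00051, at least 14.9-fold). Hoxc10 read -0.92, -0.57 and 0.73 against -4.51, -6.55 and -4.79 (-5.03 ± 0.64, adjusted p = 0.0023, at least 19.5-fold), with 1 BAT array measured. All 3 lie toward the tail end of their clusters, but Hoxa9 (-0.05, adjusted p = 0.94), the neighbour of Hoxa10, and Hoxa7 (0.00, adjusted p = 0.99) did not pass.

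A few Hox genes nearer the head end went the other way, at a share of the list near that of all genes higher in BAT. Hoxa5 (2.01, adjusted p = 0.042), Hoxc4 (1.62, adjusted p = 0.01) and Hoxc5 (2.18, adjusted p = 0.032) were higher in BAT. Hoxc5 read -1.07, -2.17 and -0.67 in scWAT and 0.58, 1.48 and 0.59 in BAT, without overlap. Between them along the HoxC cluster Hoxc6 (0.15, adjusted p = 0.83) and Hoxc8 (-1.24, adjusted p = 0.11) did not pass. Hoxd4 (-0.89, adjusted p = 0.061) and Hoxb5 (-0.34, adjusted p = 0.26), also near the head end, did not pass. Within the HoxC genes tested the differences thus ran 1.62, 2.18, 0.15, -1.24, -8.46 and -5.03 from Hoxc4 to Hoxc10. Of 17 Hox genes 3 were called in each direction (median -0.54). Hoxa5 and Hoxc5 lost their call without scWAT 2 (adjusted p = 0.10 for each), whereas Hoxc9, Hoxa10 and Hoxc10 kept theirs both there and without the muscle-rich arrays.

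Markers proposed for classical brown fat separated the depots only in part. Zic1, a factor of dorsal mesoderm, read -6.86, 0.76 and 0.46 in scWAT and -0.71, 1.49 and 1.34 in BAT (2.59, adjusted p = 0.26), and its depots overlapped because BAT 1 lay below scWAT 2 and 3. Within each array series BAT lay above scWAT for this probe, while another probe of Zic1 differed by 0.01. Lhx8 read 2.81, -0.48 and 0.00 in scWAT and -1.87, -0.68 and -0.66 in BAT (-1.84, adjusted p = 0.21). Of the 10, 3 were higher in BAT. Acot11, an acyl-CoA thioesterase, read -2.37, 0.42 and -0.60 against 5.54, 5.94 and 5.14 (6.39, adjusted p = 0.011), and the others were Mpzl2 (6.34, at least 51.8-fold) and Ebf3 (1.72). The median of the 10 was -0.07. Of the markers that define BAT, Ucp1, Cidea and Cox7a1 thus bore out the label and Zic1 and Lhx8 did not.

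White and beige markers also separated the depots only in part. Leptin (Lep), the satiety hormone of white fat, read 5.86, -1.28 and 1.46 in scWAT and 2.22, 1.90 and -0.20 in BAT (-0.70, adjusted p = 0.76). Resistin (Retn) did not pass (-1.71, adjusted p = 0.25) but did without scWAT 2 (-3.22, adjusted p = 0.013). Angiotensinogen (Agt) was higher in scWAT (-2.50, adjusted p = 0.026), and Tnfrsf9 (CD137), named as a beige marker, was higher in BAT (1.51, adjusted p = 0.004). With Hoxc9, 2 of 12 were higher in scWAT and 1 in BAT (median -1.48), beside 10.9% and 16% of all genes. Without scWAT 2 the count higher in scWAT was 5.

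Few secreted factors were called. Nrg4 (3.42), a neuregulin released by brown fat, the vessel growth factors Vegfb (2.58) and Vegfa (2.14), and Nampt (2.27) were higher in BAT. Mest, an imprinted gene tied to adipocyte enlargement, read 7.04, 1.74 and 3.33 in scWAT and 0.14, -0.26 and -0.09 in BAT (-4.11, adjusted p = 0.02), and Slit2 (-2.83) and Agt were also higher in scWAT. That is 4 and 3 of 17, near the shares over all genes, with a median of 0.03 whose sign turned with the setting (-1.22 to 0.68). Without the muscle-rich arrays 1 was called higher in BAT and none higher in scWAT. In the BMP pathway, whose ligands commit cells to the fat lineage, 4 of 16 were higher in scWAT, namely Bmp3 (-2.99, adjusted p = 0.0087), Bmp2 (-1.18), Smad1 (-0.95) and the receptor Acvr1 (-0.90). Only the target gene Id1 was higher in BAT (1.34, adjusted p = 0.033), and the median was -0.63, with no call in either direction without the muscle-rich arrays. For the family of Sorl1 itself, the LDL receptor and VPS10p genes, 1 of 10 was called (Sorcs1, -1, adjusted p = 0.025), with a median of -0.07.

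scWAT held more of the extracellular matrix. Col1a1, the main chain of type I collagen, read 6.58, 8.39 and 5.43 in scWAT and 3.36, 2.65 and 3.11 in BAT (-3.76 ± 0.63, adjusted p = 0.0044). Of 20 genes of collagens and matrix 16 were higher in scWAT and none in BAT (median -2.32). In 16 of the 20 every scWAT array lay above every BAT array, as was so in 17.4% of all tested genes. Lum, a proteoglycan of collagen fibrils, read 4.88, 5.71 and 5.46 against 2.54, 1.89 and 2.45 (-3.05, adjusted p = 0.0018). The fibril-forming chains (Col3a1 -3.19, Col5a2 -3.42), Col6a1 (-2.58) and the cross-linking enzyme Lox (-2.58) all passed. Basement membrane collagens did not, with Col4a1 at -0.77 (adjusted p = 0.30) and Col4a2 at -0.51 (adjusted p = 0.45), nor did Sparc (-0.41) or Postn (-1.73, adjusted p = 0.099). Without scWAT 2, 12 of 20 were called (median -2.09), and without the muscle-rich arrays 9 (median -2.99).

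Genes of fibroblasts and preadipocytes had 6 of 13 higher in scWAT (median -1.51), among them the precursor receptor Pdgfra (-2.24, adjusted p = 0.013) and Cd34 (-1.42). Dlk1 (Pref-1), an inhibitor of adipocyte differentiation, opposed them, at -2.61, -3.64 and -2.83 in scWAT and 0.73, 1.5 and 1.17 in BAT (4.16 ± 0.38, adjusted p = 0.00079). It was higher in BAT on every array and with either set of doubtful arrays left out (3.86 and 4.62).

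Macrophage genes were higher in scWAT, and scWAT 2 carried much of that. Trem2, a lipid-sensing receptor, read 1.27, 6.09 and 0.60 in scWAT and -2.04, -2.23 and -0.64 in BAT (-4.29, adjusted p = 0.022). Gpnmb, a marker of lipid-laden macrophages, read 0.76, 6.66 and 1.34 against -1.83, -2.57 and -1.06 (-4.74, adjusted p = 0.02). In both, scWAT 2 was far above the other scWAT arrays, which themselves stayed above BAT. Of 14 genes 8 were higher in scWAT (median -1.97), including Csf1r (-1.57) and Mrc1 (-2.09). Without scWAT 2 there were 6 and the median was -1.10, with Trem2 at -2.57 and Gpnmb at -2.87, and without the muscle-rich arrays there were 2 and the median was -2.80.

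Other cell types differed less. MHC class II genes (7) and B lymphocyte genes (6) had no call, with summed levels of 6.39 to 8.39 and 1.98 to 2.23 in scWAT and 6.09 to 7.77 and 1.64 to 1.99 in BAT, and Blk was below background on every WT array. Of 9 T lymphocyte genes only Cd4 was called (1.31, higher in BAT), while Cd3e was not (0.24, adjusted p = 0.52). None of 5 epithelial genes was called, and Epcam, Krt15 and Krt17 were below background on every WT array. Of 12 endothelial genes, Flt1 (1.07) and Kdr (0.72) were higher in BAT and Vwf was higher in scWAT (-1.60). These counts are near the shares over all genes (16% and 10.9%). The median was 0.34, and none was called without scWAT 2. Of 8 smooth muscle and pericyte genes, the contractile Acta2 (-1.60) and Tagln (-1.28) were higher in scWAT and the pericyte genes Cspg4 (2.02) and Rgs5 (1.68) higher in BAT. Myh11 and Cnn1, also contractile, overlapped between the depots and were not called. The list median was -0.12, and its sign turned with the setting (-0.74 to 0.37). Of 10 nerve and Schwann cell genes Pmp22 was higher in scWAT (-1.59, though another probe of it read 0.25) and S100b in BAT. Cell cycle genes had 2 of 11 higher in scWAT, Rrm2 (-1.79) and Mcm2 (-0.99), beside 10.9% of all genes, with a median of -1.63. Of 15 clock genes 1 was called, Hlf (3.30, higher in BAT), with a median of 0.27.

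Beyond the lists, some of the widest differences lay in genes of other kinds. S100b, a calcium-binding protein best known from glia, read 0.36, -2.20 and 1.03 in scWAT and 6.34, 6.79 and 6.11 in BAT (6.68 ± 1.11, adjusted p = 0.0044), although the Schwann cell gene Sox10 (0.50, adjusted p = 0.39) did not pass. Ptgds, a prostaglandin D synthase, differed by 6.66 (adjusted p = 0.003), and Aspg, an asparaginase, by 6.58 (adjusted p = 0.0018). Kininogen genes, precursors of the vasoactive kinins, were higher in BAT, Kng2 by 6.79 and Kng1 by 6.27, which are close copies whose probes may share transcripts. Cpn2, a subunit of the carboxypeptidase that trims kinins, was not above background on any scWAT array and was at least 132-fold higher (7.89, adjusted p = 0.0031). Acsm3 (at least 108-fold), the neurotrophin receptor Ntrk3 (at least 104-fold), Pank1, which starts the making of coenzyme A (at least 88.8-fold), and the uncharacterised Gm9961 (at least 71.1-fold) complete the widest bounds on that side.

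On the scWAT side Saa3, an acute-phase protein, read 3.75, 8.29 and 2.05 in scWAT and -3.57, -3.26 and -3.35 in BAT (-8.09 ± 1.37, adjusted p = 0.0046). The BAT arrays were nearly equal, every scWAT array was far above them, and the difference was -6.30 without scWAT 2. Without the muscle-rich arrays, where scWAT 2 weighs more, it was -9.28. The probe may also bind transcripts of related Saa genes. Slpi, a protease inhibitor of inflamed tissue, read -0.53, 6.16 and 5.59 against -3.01, -3.32 and -3.40 (-6.98, adjusted p = 0.0087). Mmp3 (-5.17), S100a8 (-5.14), Clec4d (-4.96), Ctsk (-4.60) and Thbs2 (-4.56), genes of matrix turnover and myeloid cells, followed, and all 5 were highest in scWAT 2. Major urinary proteins, which carry pheromones, were higher in scWAT in 3 near-identical copies that the probes may not tell apart, Mup17 (-5.54, at least 31.6-fold), Mup18 (-4.89) and Mup19 (-4.60), and these lost their calls without scWAT 2 (adjusted p = 0.12 to 0.13). Ccn5 (-5.71, at least 52.3-fold), Spp1, the osteopontin gene (-6.24, at least 28.4-fold), Alcam (-4.69, at least 25.9-fold), Slc9b2 (-4.95, at least 24.2-fold) and Pla2g5 (-6.15, at least 23.3-fold) had the other wide bounds, and Spp1 fell to -3.34 without scWAT 2.

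Calls differed in how far they rested on single arrays. Ucp1, Cidea, Ppargc1a, Ppara, Elovl6, Gpd2, Adrb1, Adra2a, Ebf2, Hoxc9, Hoxa10, Hoxc10, Col1a1, Lum, Dlk1, S100b and Saa3 passed with any 1 of the 6 WT arrays left out. This does not extend to the fit without the muscle-rich arrays, where WT BAT had replicate 2 alone and many calls were lost (below). Of the genes named above, Dio2, Prdm16, Fabp3, Fabp4, Pdk4, Adra1a, Esrrg, Nr4a1, Gabpa, Tfam, Hoxa5, Hoxc5, Ebf3, Abcd3, Acot4, Slit2, Acvr1, Id1, Sorcs1, Flt1, Kdr, Vwf, Rgs5, Mcm2 and Mup17, Mup18 and Mup19 lost their call without scWAT 2 (adjusted p = 0.056 for Vwf to 0.15 for Pdk4), each with its sign kept. Without that array the difference shrank by more than 1.5 times for Adrb3 (to 3.19), Cox8b (3.86), Thrsp (3.48), Mlxipl (2.28), Nrg4 (2.08), Esrrg (2.14), Hoxa5 (1.21) and Id1 (0.81) among genes higher in BAT. On the scWAT side it did so for Clec4d (to -2.43), Mmp3 (-3.16), Slit2 (-1.82) and Slc2a1 (-1.23), beside Spp1, Trem2 and Gpnmb. Without BAT replicate 2, one of the tight BAT arrays, Fasn, Cox8b, Cpt1b, Plin5, Pparg, Mest, Trem2 and Gpnmb were among 107 of the 272 named or listed genes that lost their call.

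In Lr11 -/- mice 9 probes were called in the same contrast, a count that rested on how the arrays were weighed. With array weights 5481 probes were called between the Lr11 -/- depots and 5358 between the WT depots. Across the 3910 genes called in WT, the median absolute difference between depots was 1.61 in WT and 0.52 in Lr11 -/-, 3660 kept their sign and 765 kept a difference of at least 50% of that in WT. These genes were chosen by their WT difference, which alone makes the WT values the larger. Such figures therefore do not measure how far the genotypes differ. The 9 probes called with equal weights (2799 at an unadjusted p under 0.05) stood for 7 genes, all 7 of them called in WT as well. The difference between the 2 depot contrasts was called for none of the 31574 probes (limma, 3520 at an unadjusted p under 0.05, smallest adjusted p 0.16), so no single gene was shown to differ in this way. That count depended on single arrays, being 288 without WT scWAT 3, 1234 without Lr11 -/- scWAT 1, 966 in the second array series alone and 1591 with array weights. Lr11 -/- scWAT 2 and 3 correlated with WT BAT at 0.96 to 0.97 and Lr11 -/- scWAT 1 at 0.92 to 0.94. WT scWAT 1 and 3 did so at 0.89 to 0.92 and WT scWAT 2 at 0.81 to 0.84.

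Ucp1 read 4.39, 9.75 and 10.05 in Lr11 -/- scWAT and 9.81, 9.75 and 10.07 in Lr11 -/- BAT (1.81, adjusted p = 0.79), so that 2 of the 3 scWAT arrays were at the level of BAT. The WT difference exceeded it by 10.02 ± 2.71 (adjusted p = 0.38). Ppara (1.81, 6.04 and 6.23 against 6.19, 6.63 and 6.87) and Elovl6 (1.66, 6.13 and 6.02 against 5.61, 6.15 and 5.36) had the same shape, replicate 1 of scWAT being low. That array was high in muscle genes and also in epithelial genes, whose summed level was 6.21 on it against 3.67 and 3.77 on the other Lr11 -/- scWAT arrays, and the part of either was not tested. Thermogenic genes had a median difference of 1.59, complex I of 0.62, lipogenesis of 0.49 and the collagens of -0.58.

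For 3 Hox genes the WT and Lr11 -/- differences were close. The median of the 17 Hox genes was -0.21 in Lr11 -/- beside -0.54 in WT. Hoxc9 read 2.19, 2.36 and 2.13 in Lr11 -/- scWAT and -6.28, -5.79 and -6.46 in BAT, a difference of -8.41 (adjusted p = 2.9e-05) beside -8.46 in WT, and the 2 differed by -0.05 ± 0.60 (adjusted p = 0.98). Hoxa10 (-5.40) and Hoxc10 (-5.61) were also called, and the other 4 were Mmd2 (3.33), Galr1, a galanin receptor (2.88), Slitrk4 (-3.23) and H2-M9 (-2.63). In WT these 4 differed by 5.12, 3.80, -1.74 and -1.76. So the Lr11 -/- scWAT arrays that matched BAT in Ucp1 were still apart from it in each of the 3 Hox genes, without overlap.

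**Figure D5:**
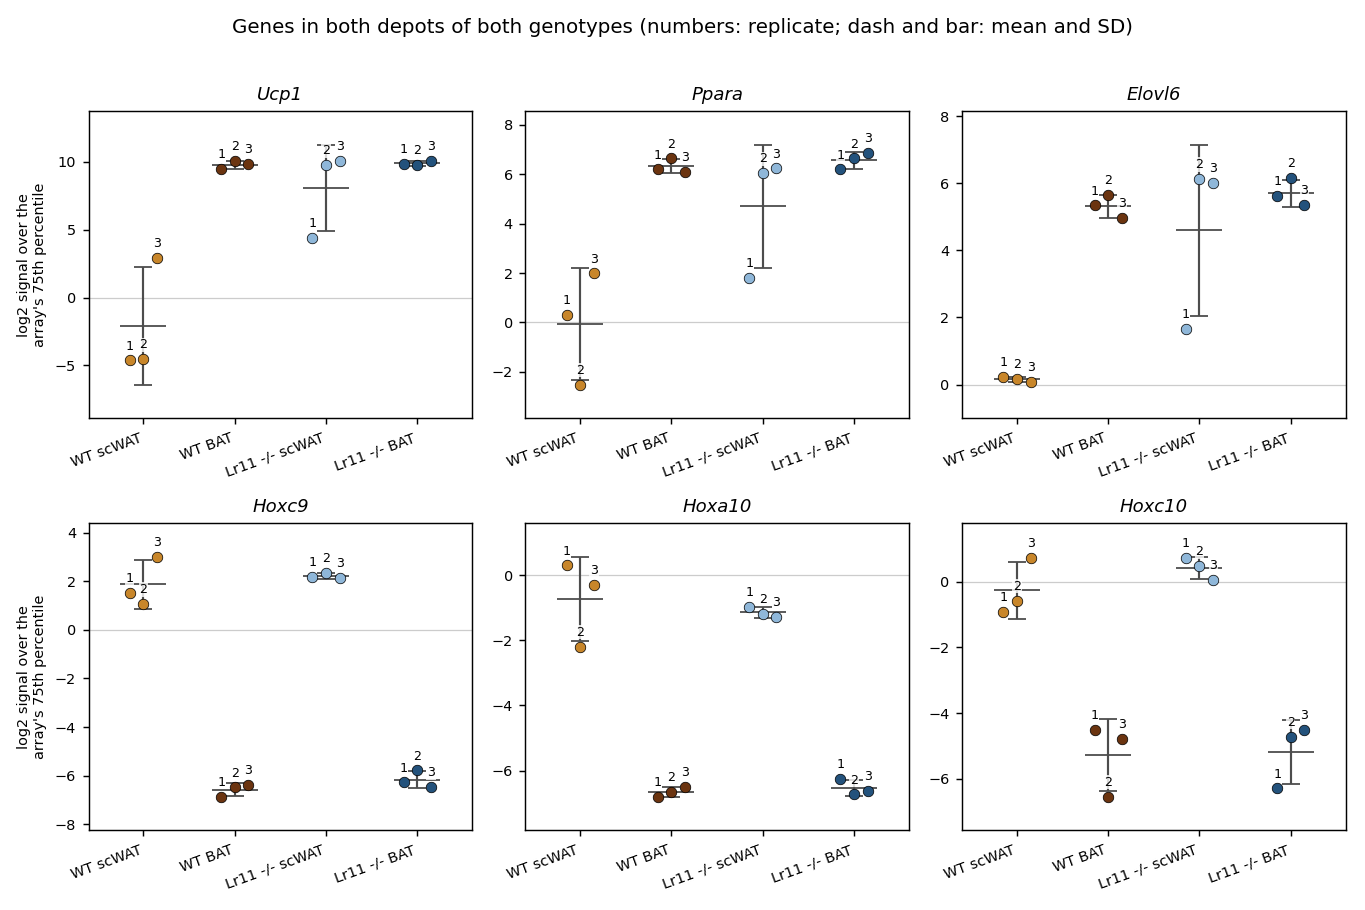
Level of Ucp1, Ppara, Elovl6, Hoxc9, Hoxa10 and Hoxc10 on all 12 arrays, in log2 intensity relative to the 75th percentile of the array, by genotype and depot, with 1 point per array, a dash at the mean of 3 and a bar for the SD. For Ucp1, Ppara and Elovl6 Lr11 -/- scWAT replicates 2 and 3 lie at the level of BAT, and for the 3 Hox genes every scWAT array of either genotype lies above every BAT array.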

How the data were processed

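RNA of both depots and both genotypes was hybridised to 12 one-colour Agilent mouse arrays, 3 in each of 4 groups. Per the file headers, the authors extracted spot intensities with Agilent Feature Extraction 10.10.1.1, which subtracts background (processed signal). The deposited intensity values were otherwise as scanned, and the table of the whole series held the same values. Non-control spots without an outlier flag were taken to log2, scaled by subtracting the 75th percentile of each array, and averaged per probe. Probes well above background on all 3 arrays of WT BAT or WT scWAT were tested with limma 3.58.1 in R 4.3.3 on all 12 arrays, with Benjamini-Hochberg adjustment. The results were computed again without the filters on outlier spots or dim probes, with other scaling or background correction, with array series or slide as a block, and with arrays left out. RefSeq accessions gave a symbol to 27235 of 28685 probes that carry one, after which 18924 tested probes stood for 14520 genes.

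Genes were named by rule: the 10 largest called differences in each direction measured on all 6 WT arrays without overlap, the 8 largest bounds in each direction, the first 3 tested genes of each list with up to 5 more of the largest called and any that opposed the rest, and Sorl1. Others, such as the ends of a list's range, were named after their values were seen. The gene lists and the comparison were chosen with earlier results of these data known. On simulated data with independent noise of equal spread in every group, 128 of 200 changed probes were recovered with 3 false calls among 31550 probes. The real groups differed in spread and far more probes were called, so this does not give the error rate of the calls above. The number of arrays, 3 in each group, limits the precision.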

Additional observations from a re-analysis of the deposited data

How the results depend on the processing

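The direction of the 272 called genes that were named or listed held under every alternative run, though the sizes of 97 moved beyond the spread of the arrays in the first series alone and of 10 with the mean of all probes of a gene. Their calls did not always hold, with 110 lost with slide as a block, 107 without WT BAT replicate 2, 83 in the 6 WT arrays alone and 57 without WT scWAT replicate 2, and 141 were lost without the 5 arrays high in muscle genes, which was chosen after seeing the data. Cox6a2, not called, turned from 0.32 to -3.39 there (adjusted p = 0.032). Of 8005 probes called (5048 higher in BAT, 2957 in scWAT), the counts were 4084 (2633 and 1451) with slide as a block, 4019 (2745 and 1274) in the 6 WT arrays alone, 2449 (1704 and 745) at an adjusted p under 0.01, and 2434 (1624 and 810) without the muscle-rich arrays. Without scaling 2486 were higher in BAT and 4775 in scWAT, and with array weights 1698 were higher in scWAT. Leaving out 1 array at a time gave 3411 (without WT BAT replicate 2) to 10271 (without WT scWAT replicate 1), with 2344 to 6081 higher in BAT and 1067 to 4190 in scWAT. The Lr11 -/- depot contrast, with 9 probes, had 15 under quantile normalization, 2 under normexp, 0 with the filter on all 6 WT arrays, 0 in the second series alone, 5481 with array weights, 4 at an adjusted p under 0.01, 1 without the muscle-rich arrays, and 3 to 51 with 1 array left out. The difference of the contrasts, with 0, had 966 in the second series alone, 1591 with array weights, 1 without the muscle-rich arrays and 0 to 1234 with 1 array left out. The cause of these shifts was not tested. No paired analysis was possible because the labels give the samples no replicate numbers (those used here follow the order of deposit and name the samples only). Signal over background limited 529 of the 3910 called genes, which were dim in the lower depot.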
